A study of Mus musculus with 18 samples.

Results

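Alternative activation of macrophages by interleukin-4 (IL-4) and interleukin-13 (IL-13) is executed by a small set of transcriptional regulators, and their RNA was followed here in microglia and macrophages of the injured mouse spinal cord. The set held 10 genes taken by name, Irf4, Klf4, Pparg, Egr2, Myc, Cebpb, Kdm6b, Bhlhe40, Batf3 and Ppargc1b, out of 53465 genes in the count table, and all 10 passed the filter on low counts in both cell types. Adult female C57BL/6J mice, 8 to 10 weeks old, received a contusion of the spinal cord and, 48 h later, an injection of vehicle (PBS), 100 ng of recombinant IL-13 (rIL-13) or 100 ng of recombinant IL-4 (rIL-4) into the lesion. The tissue was taken 24 h after the injection from 3 mice per treatment, so that every group, PBS included, carried both a contusion and an intraspinal injection. Microglia (CD45low CD11b+ F4/80+) and macrophages (CD45high CD11b+ F4/80+) were sorted from each cord, which gave 18 libraries from 9 mice in 6 groups of 3. No uninjured or uninjected animals were analysed here.

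IL-4 and IL-13 share a receptor chain, Il4ra, whose Janus kinases phosphorylate STAT6, and STAT6 then activates genes such as Chil3 and Retnla. Several of the 10 regulators act beside or below STAT6. KLF4 cooperates with it, PPAR gamma (Pparg) is a lipid-sensing nuclear receptor that amplifies the programme with its coactivator PGC-1 beta (Ppargc1b), and EGR2 and MYC are induced by IL-4 in cultured macrophages. KDM6B is a histone demethylase that removes the repressive H3K27me3 mark from Irf4, IRF4 binds DNA together with AP-1 factors of the BATF family, to which BATF3 belongs, and C/EBP beta (Cebpb) is a leucine zipper factor of myeloid cells. BHLHE40 is a basic helix-loop-helix repressor of macrophages and lymphocytes.

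The libraries held between 35961305 and 45849829 counts each, and the rIL-4 macrophages, from 42320537 counts, were deeper than all PBS and rIL-13 macrophages, at no more than 39783556. Genes with at least 10 counts numbered between 15113 and 15463 in PBS, between 14130 and 14583 in rIL-13 and between 13338 and 13744 in rIL-4 microglia, without overlap, and between 12532 and 13474 in macrophages. The part of either in the results was not tested. The labelled cell types were checked with marker genes. The summed level of 10 microglia markers had medians of 10600, 5480 and 3080 CPM (counts per library total, scaled by TMM) in PBS, rIL-13 and rIL-4 microglia, and of 4210, 1440 and 725 CPM in the macrophages of the same treatments. The microglia markers were therefore higher in the microglia gate for each treatment, and their medians were lower with the cytokines in both gates. Of 10 markers of monocyte-derived macrophages, Chil3 and Fn1 also belong to the IL-4 target list. The other 8 summed to between 76.3 and 185 CPM in PBS microglia, between 211 and 258 CPM in rIL-13 microglia and between 273 and 464 CPM in rIL-4 microglia, against between 1290 and 3220 CPM in the 9 macrophage libraries, and none of the 8 was at 0 throughout a group. These macrophage markers thus stood higher, without overlap, from PBS to rIL-13 to rIL-4 microglia, and their part in the microglia results given further on was not tested. The 9 fibroblast and pericyte markers summed to between 2580 and 3710 CPM in PBS, between 1300 and 8170 CPM in rIL-13 and between 232 and 1600 CPM in rIL-4 microglia, and to between 0.307 and 9.64 CPM in macrophage libraries. In bulk samples, fewer cells of a type and less RNA per cell cannot be told apart.

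**Figure D1:**
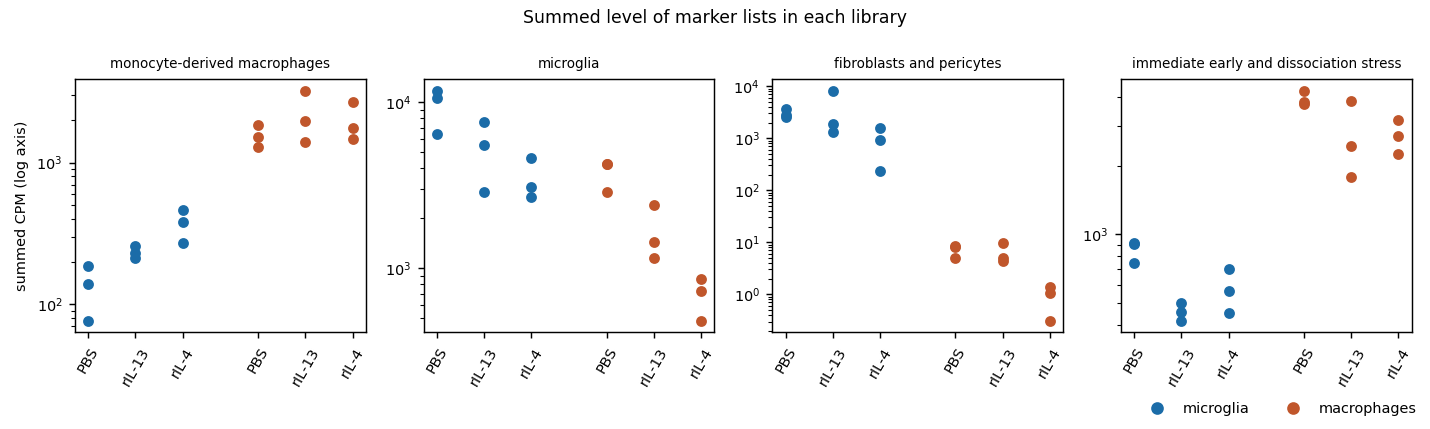
Summed CPM of 4 marker lists in each library (log axis), by treatment, in microglia (blue) and macrophages (orange), leaving out genes that are also on a pathway list (8 macrophage, 10 microglia, 9 fibroblast and pericyte and 9 immediate early genes are summed). The macrophage markers lie between 76.3 and 185 CPM in PBS microglia and between 273 and 464 CPM in rIL-4 microglia.

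Compared per kilobase of exon (CPM per kilobase, RPKM), Bhlhe40 was the most abundant of the 10 and Irf4 the least in each of the 6 groups. The mean level of Bhlhe40 was 17.6 RPKM in PBS microglia and 123 RPKM in rIL-4 macrophages. That of Irf4 was 0.0889 RPKM in PBS microglia and 1.72 RPKM in rIL-4 macrophages. Among 16511 genes, the PBS level of Bhlhe40 stood at percentile 87.1 in microglia and 95.8 in macrophages, and the PBS level of Irf4 at percentile 8.07 and 30.3. Myc (15.7 RPKM in PBS microglia and 12.5 RPKM in PBS macrophages) and Cebpb (9.32 and 25.2 RPKM) were the next most abundant in both cell types with PBS.

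**Figure D2:**
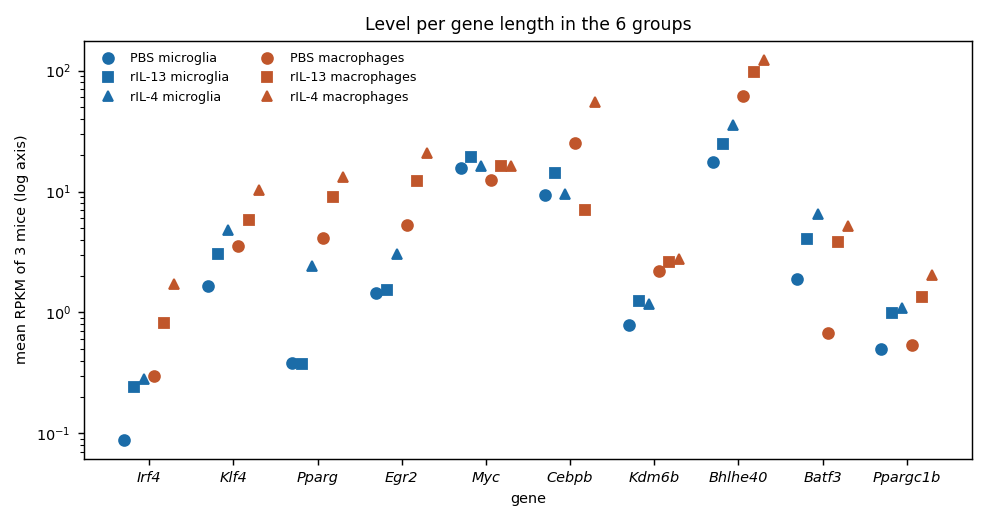
Mean level per gene length (RPKM, log axis) of the 10 genes in the 6 groups, each symbol the mean of 3 mice. Bhlhe40 reaches 123 RPKM in rIL-4 macrophages, and Irf4 stays between 0.0889 and 1.72 RPKM.

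In macrophages, rIL-4 raised 7 of the 10 regulators and lowered none of them, whereas 1900 of 13606 genes tested changed, or 14%, with 921 higher and 979 lower (edgeR's quasi-likelihood test, Benjamini-Hochberg adjusted p under 0.05). The median log2 fold change was 1.61 over the 10 and 0.02 over all genes tested. The genes called were Irf4, Batf3, Klf4, Pparg, Ppargc1b, Egr2 and Bhlhe40, and none of the 7 overlapped between the 3 PBS and the 3 rIL-4 libraries, which held for 34.7% of all genes tested. Myc, Cebpb and Kdm6b were not called. None of the 7 lost its call when any 1 of the 9 macrophage libraries was left out. Fits of all 18 libraries called fewer of them, as given with the genes below. Along the same macrophage groups the summed microglia markers went without overlap from between 2890 and 4260 CPM with PBS to between 481 and 866 CPM with rIL-4, 6 endothelial markers from between 44.2 and 52 CPM to between 205 and 429 CPM, and 5 astrocyte markers from between 21.6 and 25.5 CPM to between 65.6 and 510 CPM. Pecam1, Flt1 and Kdr made up most of the endothelial sum, while Cldn5, Cdh5 and Tek reached no more than 3.39, 1.22 and 0.519 CPM in any macrophage library. The astrocyte sum went with Gja1, between 5.43 and 491 CPM, while Gfap reached no more than 5.68 CPM and Aqp4 0.381 CPM. Lower without overlap were 7 dendritic cell markers (24.3 to 51.2 CPM with PBS and 14.6 to 23.4 CPM with rIL-4). Of these, Siglech reached the highest level in macrophages (0.444 to 39.1 CPM) and is also on the microglia list. So were 6 oligodendrocyte markers, mostly Mbp (101 to 143 CPM with PBS and 67.5 to 74.9 CPM with rIL-4), 6 eosinophil and mast cell markers, mostly Siglecf (11.8 to 14.1 CPM and 4.69 to 5.87 CPM), and the fibroblast and pericyte markers (5.09 to 8.62 CPM and 0.307 to 1.36 CPM). Likewise 9 immediate early genes, which respond to cell handling as well as to signals, went from between 3730 and 4270 CPM to between 2240 and 3170 CPM. The part of these in the macrophage results was not tested.

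**Figure D3:**
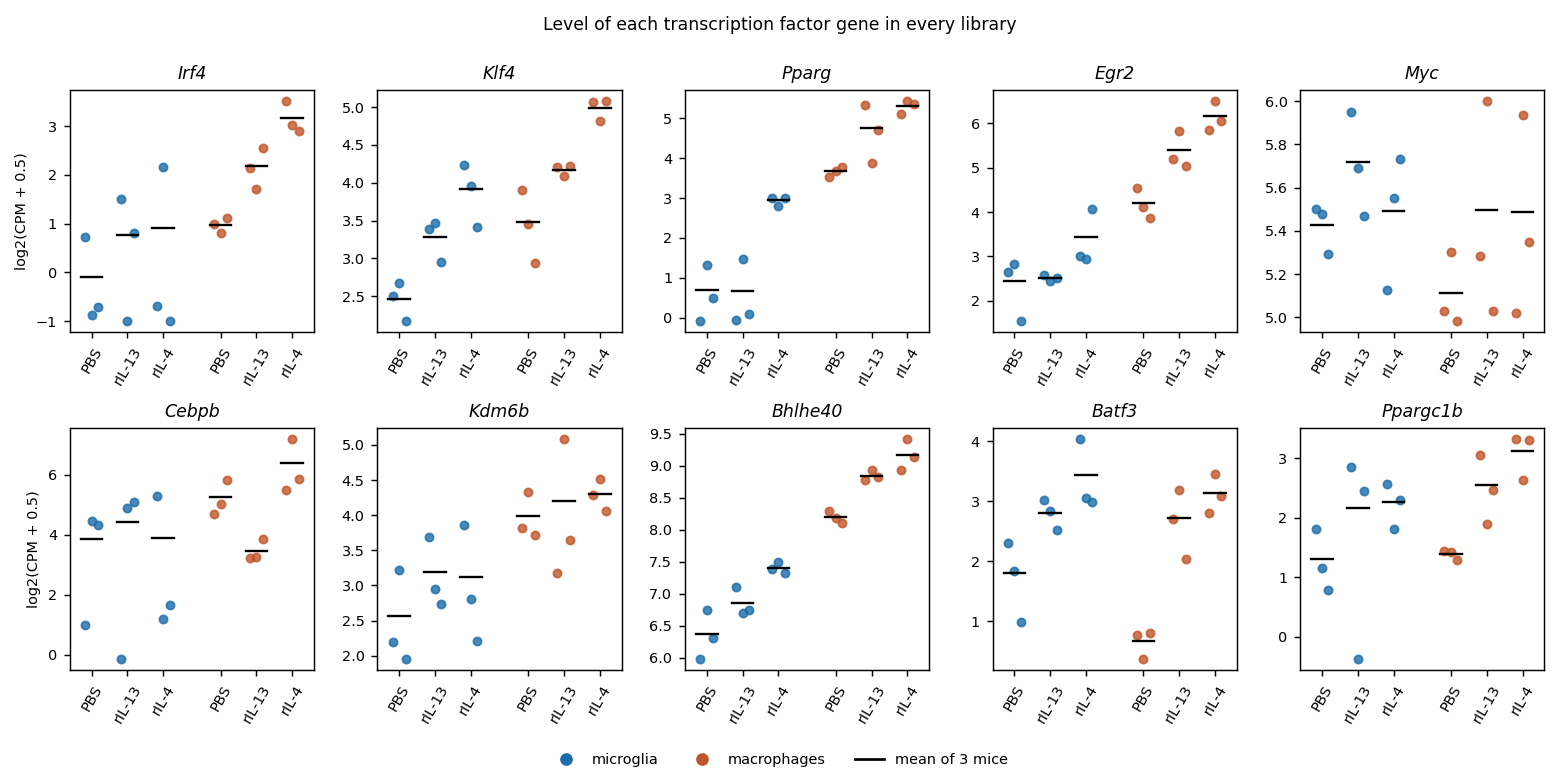
Level of each gene in every library, as log2(CPM + 0.5), by treatment, in microglia (blue) and macrophages (orange), with the mean of 3 mice as a black bar. Irf4, Klf4, Egr2, Bhlhe40 and Batf3 step upwards from PBS to rIL-13 and rIL-4 in macrophages, and Cebpb varies between 0.398 and 38.4 CPM among microglia libraries.

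Batf3 and Irf4, which encode partners on composite AP-1 and interferon response elements, had the largest fitted rises with rIL-4. Batf3 (chr1:191097847-191108945, plus strand, GRCm38) stood at 1.22, 0.793 and 1.25 CPM with PBS, at 6, 8.58 and 3.61 CPM with rIL-13 and at 6.49, 10.5 and 8.02 CPM with rIL-4. All 6 cytokine libraries were thus above all 3 PBS libraries, while the 2 cytokines overlapped. The log2 fold change with rIL-4 was 2.93 ± 0.36 (SE, adjusted p = 0.000699). Irf4 (chr13:30749226-30766976, plus strand) stood at 1.5, 1.25 and 1.67 CPM with PBS, at 3.94, 2.78 and 5.37 CPM with rIL-13 and at 10.9, 7.57 and 6.91 CPM with rIL-4. Its 3 groups did not overlap, and the order PBS, rIL-13, rIL-4 held for every library. The log2 fold change with rIL-4 was 2.52 ± 0.32 (adjusted p = 0.000818). With the mouse as a replicate block, in a limma-voom fit that gives a gene 1 estimate of spread over both cell types, its adjusted p was 0.236, and in 1 edgeR model of all 18 libraries it was 0.501.

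KLF4, a zinc finger factor that works with STAT6, followed a like course. Klf4 (chr4:55527143-55532466, minus strand) was at 14.5, 10.5 and 7.14 CPM with PBS, at 18, 16.5 and 18.2 CPM with rIL-13 and at 32.9, 27.8 and 33.3 CPM with rIL-4. The rIL-4 libraries formed a tight group above all others, and the rise had a log2 fold change of 1.55 ± 0.23 (adjusted p = 0.00196).

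The nuclear receptor and its coactivator both rose. Pparg (chr6:115360951-115490399, plus strand) was at 11.1, 12.4 and 13.2 CPM with PBS, at 39.8, 14.2 and 25.4 CPM with rIL-13 and at 33.8, 42.6 and 40.7 CPM with rIL-4, with a log2 fold change of 1.67 ± 0.30 for rIL-4 (adjusted p = 0.00528), a call lost in 1 edgeR model of all 18 libraries (0.0799). Its rIL-13 libraries were the most scattered, and mouse 5 reached the rIL-4 range. Ppargc1b (chr18:61298136-61400431, minus strand) was at 2.23, 2.2 and 1.95 CPM with PBS, at 7.82, 3.22 and 5.06 CPM with rIL-13 and at 9.49, 5.69 and 9.35 CPM with rIL-4. Its log2 fold change with rIL-4 was 1.94 ± 0.34 (adjusted p = 0.00464), and its adjusted p was 0.226 with the replicate block and 0.161 in the model of all 18 libraries. Mice 5 and 7 had more Pparg and more Ppargc1b than mouse 6 among the rIL-13 macrophages.

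Egr2 and Bhlhe40 were the other genes called. Egr2 (chr10:67535475-67542188, plus strand), an early growth response zinc finger factor, was at 22.8, 16.8 and 14 CPM with PBS, at 36.4, 56.6 and 32.4 CPM with rIL-13 and at 57.3, 90 and 66 CPM with rIL-4. The 3 groups did not overlap, and the log2 fold change with rIL-4 was 1.99 ± 0.26 (adjusted p = 0.00106). Bhlhe40 (chr6:108660629-108666925, plus strand) was at 311, 291 and 274 CPM with PBS, at 438, 488 and 451 CPM with rIL-13 and at 487, 681 and 561 CPM with rIL-4. Its log2 fold change of 0.98 ± 0.14 (adjusted p = 0.00171) was the smallest of the 7.

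**Figure D4:**
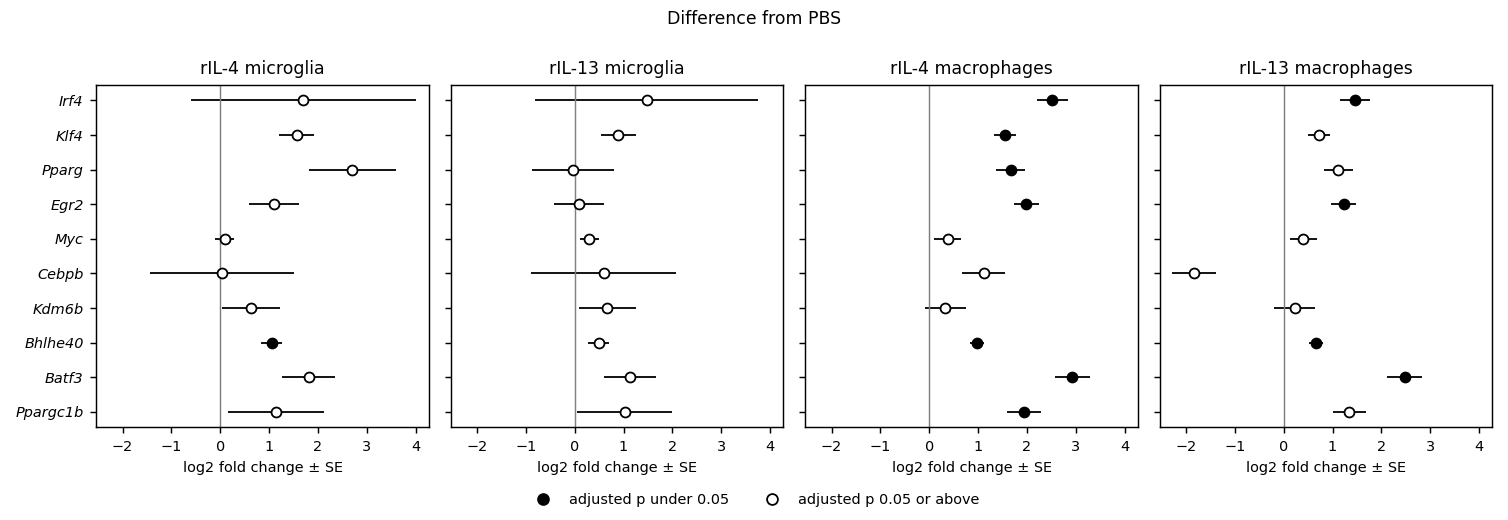
Log2 fold change against PBS with its SE for the 10 genes in each cell type and cytokine (3 mice per group), filled where the adjusted p was under 0.05. In macrophages 7 genes are filled for rIL-4 and 4 for rIL-13, and in microglia only Bhlhe40 for rIL-4.

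The sequences before the start sites are shown for Batf3, Irf4 and Egr2, genes that were called in macrophages with both cytokines. RefSeq promoter windows (GRCm38.p6, 250 bases before to 50 bases after a start) matched 6 of the 10 genes, and Myc, Kdm6b, Bhlhe40 and Ppargc1b had no entry. Only bases before an annotated UTR are printed, from chr1:191098164-191098324 for Batf3, chr13:30748983-30749225 for Irf4 and chr10:67535249-67535474 for the first of 5 start sites of Egr2, all on the plus strand, 5′ to 3′. The RefSeq start of Batf3 lies downstream of the GENCODE start of the gene given above, so that this window falls within the GENCODE gene. Capitals mark a match to TTCNNNGAA, the palindromic motif bound by STAT proteins, with 3 bases between TTC and GAA.
Batf3: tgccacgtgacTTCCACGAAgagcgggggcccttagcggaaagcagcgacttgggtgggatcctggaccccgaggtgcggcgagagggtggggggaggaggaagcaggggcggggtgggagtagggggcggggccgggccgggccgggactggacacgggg
Irf4: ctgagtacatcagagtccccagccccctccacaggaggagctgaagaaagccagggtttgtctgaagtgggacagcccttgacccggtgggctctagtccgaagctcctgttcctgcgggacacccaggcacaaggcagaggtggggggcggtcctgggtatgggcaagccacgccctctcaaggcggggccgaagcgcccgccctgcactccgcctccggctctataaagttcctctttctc
Egr2: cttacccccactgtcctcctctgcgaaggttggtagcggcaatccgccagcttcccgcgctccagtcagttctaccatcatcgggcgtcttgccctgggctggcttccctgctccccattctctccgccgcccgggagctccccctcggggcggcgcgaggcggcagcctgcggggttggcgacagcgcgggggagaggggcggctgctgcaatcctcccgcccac
The STAT6 form of the motif, TTC and GAA with 4 bases between them, was in no window of the 6 genes, and in 6.95% of 32851 windows of the same length genome-wide. TTCNNNGAA was in the window of Batf3 only, at position -239 relative to the start site, and in 8.3% of all windows. Both motifs read the same on either strand and were counted separately. The GC box GGGCGG, searched on both strands, was in at least 1 window of each of the 6 genes with an entry. It was not in every window of Pparg, which has 3, or of Egr2, which has 5. The share over all windows, 35.7%, counts single windows, so it is not like for like with a count of genes. These are matches of letters in a short window, with no measurement of binding.

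The macrophage response to rIL-13 was tested in the same way. Of the 10, 4 were called, all higher, against 570 of 13606 genes tested, or 4.19%, with 344 higher and 226 lower. Batf3 had a log2 fold change of 2.48 ± 0.36 (adjusted p = 0.0047), Irf4 of 1.46 ± 0.31 (adjusted p = 0.0301), Egr2 of 1.23 ± 0.26 (adjusted p = 0.0279) and Bhlhe40 of 0.66 ± 0.14 (adjusted p = 0.0305). Klf4 (0.72 ± 0.23, adjusted p = 0.122), Pparg (1.12 ± 0.30, adjusted p = 0.0701) and Ppargc1b (1.34 ± 0.34, adjusted p = 0.0578) missed the threshold although their rIL-13 and PBS libraries did not overlap. Groups that do not overlap were found for 24.5% of all genes in this comparison. DESeq2 called 8 of the 10 here, among them Cebpb, which was lower (log2 fold change -1.84), beside 1163 of 13606 genes. For rIL-4 it called 7, beside 2660 of 13606 genes. The model of all 18 libraries called Batf3 alone, beside 257 of 16535 genes, and the replicate block none, beside 186 of 16535. With the block, the adjusted p was 0.16 for Batf3, 0.999 for Irf4, 0.0875 for Egr2 and 0.0689 for Bhlhe40. Batf3 alone kept its call whichever mouse was left out. Irf4 lost it without PBS mouse 1, 2 or 3 or rIL-13 mouse 5 or 7 (adjusted p between 0.0671 and 0.117), Egr2 without PBS mouse 2 or 3 or rIL-13 mouse 6 (between 0.0549 and 0.129), and Bhlhe40 without any 1 of the PBS or rIL-13 mice or rIL-4 mouse 10 (between 0.0591 and 0.17). In turn, Pparg and Ppargc1b were called without rIL-13 mouse 6 (adjusted p = 0.0046 and 0.0162), the mouse lowest in both, and Klf4 without PBS mouse 1 (0.0411), the highest of the PBS mice. Ppargc1b was also called without rIL-4 mouse 9 (0.0429), and with no filter on low counts Pparg (0.0121) and Ppargc1b (0.0206) were called. With only the 6 libraries compared, Irf4 lost its call (0.0555). From PBS to rIL-13 macrophages the microglia markers went from between 2890 and 4260 CPM to between 1150 and 2410 CPM, the endothelial markers from between 44.2 and 52 CPM to between 133 and 217 CPM and the astrocyte markers from between 21.6 and 25.5 CPM to between 61.1 and 406 CPM. The oligodendrocyte markers (68.5 to 80 CPM with rIL-13) and the eosinophil and mast cell markers (6.01 to 7.79 CPM) also lay below their PBS ranges, and the part of all of these in the rIL-13 results was not tested.

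Cebpb was the 1 regulator called between the 2 cytokines in macrophages. Cebpb (chr2:167688915-167690418, plus strand) was at 25.1, 32 and 56.5 CPM with PBS, at 8.76, 9.05 and 13.9 CPM with rIL-13 and at 44.3, 145 and 57.8 CPM with rIL-4. Every rIL-13 library was below every PBS library, and every rIL-4 library was above every rIL-13 library. The rIL-4 libraries overlapped the PBS libraries. The log2 fold change between rIL-4 and rIL-13 was 2.95 ± 0.47 (95% interval 1.91 to 3.99, adjusted p = 0.0415), which made Cebpb the only 1 of the 10 called in that comparison, in which 34 of 13606 genes, or 0.25%, were called. The difference from PBS was -1.83 ± 0.45 with rIL-13 (adjusted p = 0.0509) and 1.12 ± 0.44 with rIL-4 (adjusted p = 0.124). The call between the cytokines was lost without any 1 mouse other than PBS mouse 2 (adjusted p between 0.0506 and 0.151), with the replicate block (adjusted p = 1), with only the 6 libraries compared (0.0862) and in the model of all 18 libraries (0.793), while the log2 fold change stayed between 2.25 and 3.26 with 1 mouse left out. The 2.25 was the value without rIL-4 mouse 9, the library at 145 CPM, which also had the highest sums of its group for astrocyte markers (510 CPM against 65.6 and 180 CPM in mice 8 and 10), endothelial markers (429 CPM against 205 and 248 CPM) and neutrophil markers (788 CPM against 231 and 423 CPM). Their part in the Cebpb level was not tested. Against PBS, the fall with rIL-13 was called once rIL-4 mouse 8 (adjusted p = 0.0388) or 9 (0.0108) was left out, with DESeq2 (0.000722), with no filter on low counts (0.00196), with a stricter filter of 10 or more counts in each library (0.0472) and with only the 6 libraries compared (0.0218). With no filter, the difference of rIL-4 from PBS was called as well (0.0353). Within groups, Cebpb varied more than 97.1% of macrophage genes of a like level. A 312-base exon of Tmem189 on the opposite strand (chr2:167689511-167689822) lies inside the 1504 bases of Cebpb, and the libraries do not keep strand, so reads from this stretch cannot be told apart. Tmem189 was between 29.2 and 30.7 CPM in rIL-13 macrophages, between 36.9 and 48.5 CPM in PBS macrophages and between 29.9 and 58.9 CPM in rIL-4 macrophages.

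Between rIL-4 and rIL-13, the other regulators that responded in macrophages were higher with rIL-4, but none of these differences was called. They were 1.06 ± 0.30 on the log2 scale for Irf4 (adjusted p = 0.197), 0.83 ± 0.23 for Klf4 (0.185) and 0.76 ± 0.26 for Egr2 (0.289), and in these 3 genes every rIL-4 library exceeded every rIL-13 library. For 14.4% of all genes these groups did not overlap. Pparg (0.55, 95% interval -0.11 to 1.21), Ppargc1b (0.60, -0.13 to 1.33), Batf3 (0.45, -0.27 to 1.18) and Bhlhe40 (0.32, 0.01 to 0.63) overlapped between the cytokines. DESeq2 called Irf4 (adjusted p = 0.0352) and Klf4 (0.0318) as well as Cebpb. Both comparisons with PBS use the same 3 PBS libraries.

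Myc and Kdm6b did not pass the test with either cytokine in either cell type. Myc (chr15:61985391-61990374, plus strand), the E-box factor that governs growth, was at 32.2, 38.9 and 31.1 CPM in PBS macrophages, at 38.4, 63.5 and 32.2 CPM with rIL-13 and at 31.9, 60.8 and 40.2 CPM with rIL-4. Its log2 fold change in macrophages was 0.38 (95% interval -0.24 to 0.99) with rIL-4 and 0.40 (-0.22 to 1.01) with rIL-13. In microglia it was between 38.7 and 44.8 CPM with PBS, between 43.8 and 61.4 CPM with rIL-13 and between 34.4 and 52.6 CPM with rIL-4, and the log2 fold change with rIL-4 was 0.09 (-0.37 to 0.55). Kdm6b (chr11:69398508-69413675, minus strand) was at 13.6, 19.7 and 12.7 CPM in PBS macrophages, at 8.53, 33.4 and 12 CPM with rIL-13 and at 19.1, 22.3 and 16.2 CPM with rIL-4. Its log2 fold change was 0.33 (-0.61 to 1.26) with rIL-4 and 0.23 (-0.70 to 1.17) with rIL-13, and the latter was -0.56 without rIL-13 mouse 6. That macrophage library, the highest of its group for Kdm6b, Myc, Egr2, Bhlhe40 and Batf3, also stood apart in marker sums, with 2950 CPM of 8 neutrophil markers against 534 and 484 CPM, 406 CPM of 5 astrocyte markers against 61.1 and 113 CPM, and 5280 CPM of 12 immediate early genes against 2540 and 3280 CPM in mice 5 and 7. Their part in these levels was not tested. In microglia Kdm6b was between 3.36 and 8.86 CPM with PBS, between 6.17 and 12.4 CPM with rIL-13 and between 4.1 and 14 CPM with rIL-4, and the log2 fold change with rIL-4 was 0.63 ± 0.59 (adjusted p = 0.719). In macrophages the rIL-4 intervals of both genes reach changes of the size that Bhlhe40 showed.

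In microglia, rIL-4 raised Bhlhe40, and the other regulators were not called by edgeR in the 9 microglia libraries. The call of 1 in 10 stands against 345 of 15566 genes tested, or 2.22%. All 10 fitted log2 fold changes were above 0, with a median of 1.12 against -0.06 over all genes, and in 6 of the 10 the rIL-4 and PBS libraries did not overlap, as in 25.9% of all genes tested. The sign turned for Irf4 (-2.70), Cebpb (-2.67), Kdm6b (-0.00) and Myc (-0.04) when 1 rIL-4 mouse was left out. Bhlhe40 was at 62.4, 107 and 78.4 CPM with PBS, at 137, 103 and 107 CPM with rIL-13 and at 167, 179 and 159 CPM with rIL-4. The rIL-4 libraries lay above all others, with a log2 fold change of 1.05 ± 0.21 against PBS (adjusted p = 0.0384). This call was lost without PBS mouse 1 or 3, rIL-13 mouse 7, or any 1 of the rIL-4 mice 8, 9 and 10, with an adjusted p between 0.0639 and 0.175 and a log2 fold change between 0.88 and 1.09. Bhlhe40 was between 274 and 681 CPM in macrophages, whose 8 markers, given above, were higher along the same groups. From PBS to rIL-4 microglia, 6 endothelial markers went from between 715 and 1570 CPM to between 1700 and 2250 CPM, the fibroblast and pericyte markers from between 2580 and 3710 CPM to between 232 and 1600 CPM, and 9 immediate early genes from between 750 and 914 CPM to between 450 and 703 CPM, all without overlap. The part of these in the microglia results was not tested.

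Klf4, Pparg and Batf3 missed the threshold in rIL-4 microglia, although their rIL-4 libraries stood above every PBS library. Klf4 was at 5.16, 5.86 and 4 CPM with PBS, at 9.97, 10.6 and 7.23 CPM with rIL-13 and at 18.4, 15.1 and 10.2 CPM with rIL-4. Both cytokine groups were above PBS without overlap. The log2 fold change was 1.57 ± 0.36 with rIL-4 (adjusted p = 0.0655) and 0.89 ± 0.36 with rIL-13 (adjusted p = 0.593). Pparg was at 0.44, 2.01 and 0.919 CPM with PBS, at 0.468, 2.26 and 0.568 CPM with rIL-13 and at 7.57, 6.45 and 7.5 CPM with rIL-4. The PBS and rIL-13 libraries covered the same range, and the 3 rIL-4 libraries stood apart from all 6. The log2 fold change against PBS was 2.70 ± 0.89 with rIL-4 (adjusted p = 0.174) and -0.03 ± 0.84 with rIL-13 (adjusted p = 1). Batf3 was at 4.43, 3.1 and 1.49 CPM with PBS, at 7.67, 6.62 and 5.27 CPM with rIL-13 and at 15.9, 7.77 and 7.42 CPM with rIL-4. Every cytokine library was above every PBS library, with a log2 fold change of 1.81 ± 0.54 for rIL-4 (adjusted p = 0.139) and 1.13 ± 0.53 for rIL-13 (adjusted p = 0.692). These 3 genes and Bhlhe40 were the 4 called in rIL-4 microglia by DESeq2, by a single edgeR model of all 18 libraries and with the replicate block. Over all genes, these fits called 1215 of 15566, 949 of 16535 and 2015 of 16535. With the block, the adjusted p was 0.00724 for Klf4, 0.0243 for Pparg and 0.0213 for Batf3.

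Egr2 and Ppargc1b showed smaller separations in microglia. Egr2 was at 5.77, 6.66 and 2.41 CPM with PBS, at 5.45, 4.99 and 5.19 CPM with rIL-13 and at 7.62, 7.25 and 16.4 CPM with rIL-4. The log2 fold change was 1.10 ± 0.52 with rIL-4 (adjusted p = 0.338) and 0.08 ± 0.51 with rIL-13 (adjusted p = 1). The rIL-4 libraries were above the others, with mouse 10 far ahead of its group. Ppargc1b was at 3.01, 1.72 and 1.22 CPM with PBS, at 6.69, 0.272 and 4.96 CPM with rIL-13 and at 5.44, 3.02 and 4.4 CPM with rIL-4. Its log2 fold change was 1.14 ± 0.98 with rIL-4 (adjusted p = 0.675) and 1.02 ± 0.98 with rIL-13 (adjusted p = 1), its highest PBS and lowest rIL-4 library were nearly equal, and the rIL-13 library of mouse 6 was the lowest of the 9 microglia libraries. That library held 8170 CPM of fibroblast and pericyte markers, against 1910 and 1300 CPM in mice 5 and 7. Its microglia markers summed to 2870 CPM, against 7590 and 5480 CPM. The part of either in its levels was not tested.

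Irf4 and Cebpb were erratic in microglia. Irf4 was at 1.15, 0.0431 and 0.115 CPM with PBS, at 2.34, 0 and 1.25 CPM with rIL-13 and at 0.125, 4 and 0 CPM with rIL-4. These levels came from between 0 and 209 counts, and the 0 of rIL-13 mouse 6 and of rIL-4 mouse 10 allow up to 0.0628 and 0.0815 CPM (3 counts), which covers counting error only. Each treatment held both a library near 0 and a library above 1 CPM, and the log2 fold change with rIL-4 had an SE of 2.30 around 1.70 (adjusted p = 0.833), and leaving out rIL-4 mouse 9 gave -2.70, leaving out PBS mouse 1 gave 4.10. Cebpb was at 1.47, 21.3 and 19.3 CPM with PBS, at 0.398, 29.4 and 33.7 CPM with rIL-13 and at 38.4, 1.76 and 2.61 CPM with rIL-4. Of the 9 libraries, 4 were under 3 CPM and 5 at 19.3 CPM or more, and every treatment held both kinds. With rIL-4 its log2 fold change was 0.04 ± 1.48 (adjusted p = 0.998), and -2.67 without rIL-4 mouse 8. The SD of log2 CPM within microglia groups was 2.43 for Cebpb against a median of 0.57 over 1907 genes of a like level, at percentile 99.9, and 1.35 for Irf4 against 0.81, at percentile 94.8. In macrophages it was 0.65 for Cebpb and 0.32 for Irf4. Tmem189, which overlaps Cebpb, was steady across the microglia libraries, between 11.5 and 18.5 CPM.

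With rIL-13, none of the 10 was called in microglia by edgeR, where 57 of 15566 genes, or 0.366%, were called, nor by DESeq2. Of the 10 log2 fold changes 9 were above 0, with a median of 0.63. At an unadjusted p under 0.05 there were 2, Klf4 and Bhlhe40 (0.49 ± 0.21, adjusted p = 0.635), beside 7.76% of all genes, and the groups did not overlap for Klf4 and Batf3, beside 16% of all genes. In the microglia comparison of rIL-4 with rIL-13 none was called by edgeR in the 9 microglia libraries either, against 6 genes of 15566, or 0.0385%. The unadjusted p was under 0.05 for 2, Pparg and Bhlhe40, beside 11.4% of all genes. Pparg differed by 2.72 ± 0.89 on the log2 scale (95% interval 0.72 to 4.73, adjusted p = 0.343), and it was the gene of the 10 that DESeq2 (adjusted p = 0.0406), the edgeR model of all 18 libraries (0.034) and the replicate block (0.0453) called. Bhlhe40 (0.56 ± 0.21, adjusted p = 0.391) and Egr2 (1.01 ± 0.52, adjusted p = 0.504) also did not overlap between the cytokines, as 12.3% of all genes did not, while Klf4 (0.67 ± 0.36, adjusted p = 0.531) did overlap.

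The levels of the regulators were also compared between microglia and macrophages of the same mice. With PBS, 5 of the 10 were lower in microglia and none higher, a share near that of all genes, of which 6014 of 14715 tested, or 40.9%, differed between the cell types (3612 higher and 2402 lower in microglia). The log2 difference was -3.47 ± 0.51 for Pparg (adjusted p = 0.000819), -1.89 ± 0.39 for Egr2 (0.00437), -1.85 ± 0.20 for Bhlhe40 (0.000139), -1.53 ± 0.39 for Kdm6b (0.0125) and -1.14 ± 0.33 for Klf4 (0.0224). Batf3 went the other way, at 1.43 ± 0.55 (adjusted p = 0.068), with the 3 PBS microglia libraries between 1.49 and 4.43 CPM and the 3 PBS macrophage libraries between 0.793 and 1.25 CPM, and it was called by DESeq2 (adjusted p = 0.0359) and in 1 edgeR model of all 18 libraries (0.0291). Irf4 (-1.80 ± 1.08, adjusted p = 0.222) and Cebpb (-1.46 ± 0.75, adjusted p = 0.159) were lower in every PBS microglia library than in any PBS macrophage library but were not called, though with the replicate block Cebpb was (adjusted p = 0.036). Without PBS mouse 1, Klf4 (adjusted p = 0.125) and Kdm6b (0.0729) lost their calls and Irf4 (a log2 difference of -4.20, 0.0205) and Cebpb (0.0283) gained one. Klf4 also lost it without PBS mouse 2 (0.0566) and Kdm6b without PBS mouse 3 (0.0561). The immediate early genes were also lower in the microglia gate, with medians of 905 CPM summed over 9 genes in PBS microglia and 3800 CPM in PBS macrophages. Neutrophil markers were lower too (149 to 221 CPM against 759 to 1320 CPM), while endothelial (715 to 1570 CPM against 44.2 to 52 CPM), fibroblast and pericyte (2580 to 3710 CPM against 5.09 to 8.62 CPM) and astrocyte markers (92.9 to 173 CPM against 21.6 to 25.5 CPM) were higher in PBS microglia. So were 7 dendritic cell markers (107 to 329 CPM against 24.3 to 51.2 CPM), which include Siglech of the microglia list. Oligodendrocyte (166 to 236 CPM against 101 to 143 CPM) and neuron markers (4.55 to 9.14 CPM against 0.275 to 0.622 CPM) were higher as well. The part of these in the differences was not tested.

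**Figure D5:**
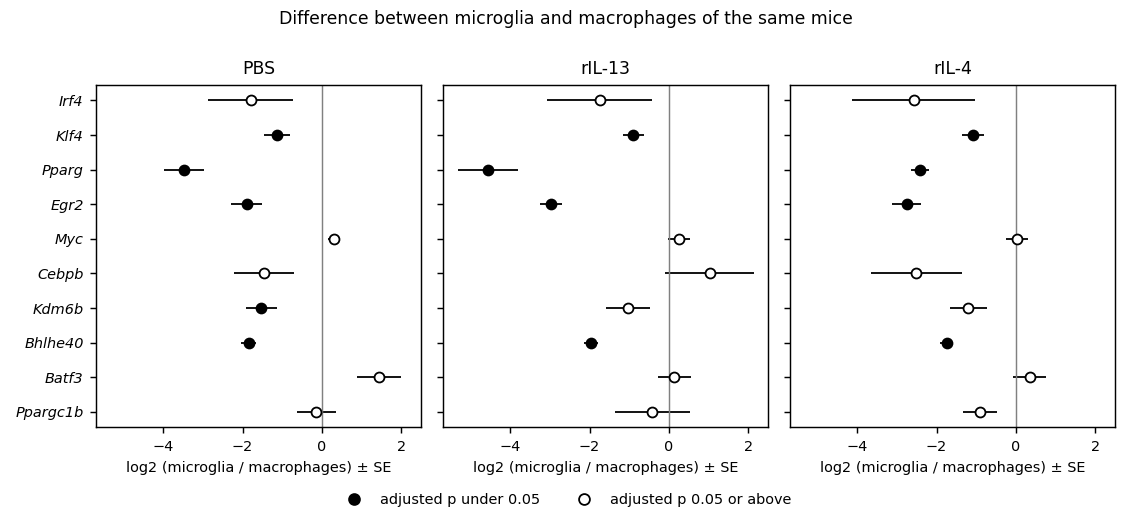
Log2 difference between microglia and macrophages with its SE for each treatment (3 mice each, negative where microglia were lower), filled where the adjusted p was under 0.05. Pparg, Egr2, Bhlhe40 and Klf4 are filled and negative with each treatment, and Batf3 goes from 1.43 with PBS to 0.13 with rIL-13 and 0.34 with rIL-4.

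With the cytokines, Pparg, Egr2, Bhlhe40 and Klf4 remained lower in microglia. With rIL-13, where 3710 of 13906 genes (26.7%) differed, the log2 difference was -4.56 ± 0.75 for Pparg, -2.98 ± 0.28 for Egr2, -1.97 ± 0.18 for Bhlhe40 and -0.90 ± 0.26 for Klf4, with adjusted p of 0.00409, 0.000488, 0.000471 and 0.0402. With rIL-4, where 3174 of 13576 genes (23.4%) differed, it was -2.42 ± 0.22 for Pparg, -2.75 ± 0.37 for Egr2, -1.75 ± 0.17 for Bhlhe40 and -1.08 ± 0.27 for Klf4, with adjusted p of 0.000335, 0.0019, 0.000416 and 0.0232. The call of Klf4 was lost with rIL-13 without mouse 5 (adjusted p = 0.17), 6 (0.0512) or 7 (0.262) with the replicate block (0.0706) or with no filter on low counts (0.0619), and with rIL-4 without any 1 mouse (between 0.0679 and 0.153). That of Pparg with rIL-13 was lost without mouse 7 (0.0657). Kdm6b was at -1.04 ± 0.55 with rIL-13 and -1.20 ± 0.46 with rIL-4, neither of them called. The log2 difference of Batf3 was 0.13 ± 0.42 with rIL-13 and 0.34 ± 0.42 with rIL-4, with libraries of the 2 cell types overlapping. The endothelial and the fibroblast and pericyte markers were higher in microglia with the cytokines as well, at no less than 1340 and 232 CPM against no more than 429 and 9.64 CPM in macrophages, and the immediate early genes lower, at no more than 703 CPM against no less than 1790 CPM, with their part again not tested.

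Whether microglia and macrophages responded differently was tested directly, as the difference between their responses, and none of the 10 passed for either cytokine. For rIL-4, 164 of 16535 genes, or 0.992%, passed edgeR's test of this difference, none of the 10 did so even at an unadjusted p under 0.05, beside 12.4% of all genes, and DESeq2 called none of them. For rIL-13, 4 genes, or 0.0242%, passed, DESeq2 again called none of the 10, and only Egr2 reached an unadjusted p under 0.05, beside 5.83% of all genes. The rIL-4 response of Klf4 differed by -0.01 between the cell types (95% interval -0.88 to 0.87) and that of Bhlhe40 by 0.05 (-0.49 to 0.58), with the sign of Klf4 turning under DESeq2's scaling. The fitted response was smaller in microglia for Egr2, at -0.92 (-2.03 to 0.18) with rIL-4 and -1.16 (-2.27 to -0.05) with rIL-13, and for Batf3, at -1.15 (-2.51 to 0.20) with rIL-4 and -1.36 (-2.72 to 0.00) with rIL-13. For Pparg the difference was 0.99 with rIL-4 (-0.60 to 2.58) and -1.15 with rIL-13 (-2.77 to 0.48). These intervals are wide, and the fewer calls in microglia than in macrophages are not by themselves a difference between the cell types.

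The genes around the regulators were followed with lists. Of 21 genes of the IL-4 and IL-13 receptor and STAT6 signalling, 4 rose and 2 fell among 19 tested in rIL-4 macrophages, where 14% of all genes were called, led by Jak2 (log2 fold change 2.56 ± 0.26), Cish (4.80 ± 0.54) and Socs1 (3.55 ± 0.47), a kinase of the pathway and a pair of its feedback inhibitors, and by a fall of the phosphatase gene Ptpn6 (-0.55 ± 0.11). The kinase gene Akt1 (0.59 ± 0.15) and the receptor gene Il13ra1 (-0.64 ± 0.17), named after their values were seen, were the other 2 called. In rIL-13 macrophages Jak2 (1.84 ± 0.25), Cish (3.18 ± 0.51) and Socs1 (2.62 ± 0.45) were the 3 of 19 that rose, beside 4.19% of all genes called. In microglia Socs1 rose with rIL-4 (3.90 ± 0.38) and rIL-13 (2.70 ± 0.36), and Socs3 fell with rIL-4 (-0.89 ± 0.17), the calls by edgeR among 21 genes tested, beside 2.22% of all genes called with rIL-4 and 0.366% with rIL-13. DESeq2 called 7 of the 21 with rIL-4 and 3 with rIL-13, beside 1215 and 322 of 15566 genes. With PBS, 10 of the 20 signalling genes tested were lower in microglia and 3 higher, where 40.9% of all genes were called. The receptor chain Il4ra was among the lower ones, at a mean of 196 CPM in PBS microglia and 556 CPM in PBS macrophages, a log2 difference of -1.53 ± 0.20 (adjusted p = 0.0004). The 3 higher ones were Irs1, absent by count (0) from the PBS macrophages and higher by at least 37.3-fold in PBS microglia (against 3 counts per library), and, named after their values were seen, Jak3 (0.55 ± 0.16) and Pik3r1 (0.46 ± 0.16).

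Of 29 relatives and partners of the regulators, 25 were tested in macrophages and 3 of these were called with rIL-4, a share near the 14% of all genes. With rIL-4 Nab2 rose (1.16 ± 0.16), a corepressor of EGR proteins, while Bhlhe41 (-2.84 ± 0.55), the closest relative of Bhlhe40, and Irf8 (-0.59 ± 0.13), of the same family as Irf4, fell. In rIL-13 macrophages Nab2 (0.83 ± 0.16) and Bhlhe41 (-2.55 ± 0.54) did likewise, beside 4.19% of all genes called. Mean Bhlhe41 was 73.8 CPM in PBS, 12.6 CPM in rIL-13 and 10.2 CPM in rIL-4 macrophages, so that Bhlhe40 rose and Bhlhe41 fell. In microglia none of the 26 tested was called by edgeR with either cytokine, with an unadjusted p under 0.05 for 5 with rIL-4, beside 16.4% of all genes, and 6 with rIL-13, beside 7.76%, where DESeq2 called 4 and 1. The lowest p belonged to Egr1 with both, at -1.33 ± 0.29 with rIL-4 (adjusted p = 0.0535) and -1.21 ± 0.29 with rIL-13 (adjusted p = 0.227).

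Known target genes had larger fold changes than the regulators, with a median log2 fold change of 3.06 over 20 targets in rIL-4 macrophages against 1.61 over the regulators. Both lists were chosen with earlier results of these data known, so this contrast is a description only. Of these 20, 17 rose and 1 fell in rIL-4 macrophages, 14 rose in rIL-13 macrophages, and of 19 tested in microglia 13 rose with rIL-4 and 8 with rIL-13. The shares of all genes called in these comparisons were 14%, 4.19%, 2.22% and 0.366%. The 1 that fell, named after its values were seen, was Alox15 (-3.44 ± 0.93), at a mean of 1.46 CPM with PBS and 0.128 CPM with rIL-4. Mrc1, a mannose receptor, had a log2 fold change of 4.84 ± 0.25 in rIL-4 macrophages, and Ccl24, a chemokine for eosinophils, of 8.40 ± 0.45 in rIL-4 microglia and of 6.44 ± 0.42 in those given rIL-13. Retnla, at no more than 2 counts in any PBS macrophage library, gained at least 10000-fold under rIL-4 (against 3 counts per library), and at least 2380-fold under rIL-13. Of 11 genes known to respond to PPAR gamma, 2 were called in rIL-4 macrophages, a share near the 14% of all genes, both lower, Lpl (-1.30 ± 0.21), a lipase, and Plin2 (-0.56 ± 0.15), a lipid droplet protein, and Lpl fell with rIL-13 as well (-1.25 ± 0.21). In rIL-4 microglia Fabp5, a fatty acid carrier, rose by 1.40 ± 0.23 on the log2 scale, and the median of the 11 was 0.63.

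The genes whose profile was most like that of each regulator were taken by Pearson's r of log2 CPM over the 18 libraries, among 14788 genes. These libraries share 9 mice and fall into 2 cell types, and r is a description only. It was highest for Bhlhe40 with Furin (0.981) and Cfp (0.978), Egr2 with Sept9 (0.970) and Ssr3 (0.962), Pparg with Aldh3b1 (0.958) and Pstpip1 (0.950), and Batf3 with Fyn (0.951) and Gatm (0.898). For Klf4 it was highest with Htt (0.926) and Bcar3 (0.911), for Cebpb with Ube2m (0.914) and Kctd6 (0.895), for Kdm6b with Znhit1 (0.900) and Cebpe (0.881), and for Irf4 with Ceacam19 and Gpr108 (0.895 each). Myc (Rbmxl1 0.859, Nap1l4 0.847) and Ppargc1b (Gpr65 0.858, Hes6 0.857) had the least alike partners.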

How the data were processed

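RNA from FACS-sorted microglia and macrophages of 9 mice was made into 18 SMART-seq2 libraries, which carry neither molecular identifiers nor strand. The authors aligned reads with STAR 2.5.3a and deposited RSEM 1.3.0 expected counts per gene as whole numbers, on GRCm38 with an annotation release not given in the sources used here. Each library held between 35961305 and 45849829 counts, and PCR duplicates remain within them.

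From these, edgeR 4.0.16 (R 4.3.3, TMM scaling, filterByExpr) gave quasi-likelihood tests over all genes kept, with Benjamini-Hochberg adjusted p and a threshold of 0.05. Cytokine comparisons used the 9 libraries of a cell type, cell-type comparisons the 6 libraries of a treatment, and differences between responses all 18. An SE is the log2 fold change over the root of F. Levels are TMM CPM over all 18 libraries, divided by GENCODE M21 union exon length for RPKM (53274 of 53465 gene identifiers matched without their version). Log2 CPM values use a pseudocount of 0.5. The code was tested on simulated data.

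Microglia and macrophages with 1 number came from the same mouse. Over 16535 genes, the deviations of such pairs from their group means correlated with Pearson's r between 0.04 and 0.17, so the mouse as a block was an alternative (edgeR for cell-type comparisons and limma-voom 3.58.1, with a within-mouse correlation of 0.100, for cytokine comparisons). DESeq2 1.42.0 was another. Replicates are separate mice.

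All 10 regulators are described. Of the other listed genes, at most 4 per list and comparison are named, by the lowest p, unless a sentence says otherwise, and 2 genes of like profile per regulator, among genes reaching 10 counts throughout at least 1 group. The regulators and lists were chosen with earlier results of these data known.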

Additional observations from a re-analysis of the deposited data

How the results depend on the processing

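Of 76 reported log2 fold changes of the regulators, 26 were called, none of the 26 changed direction under any alternative tried, and 12 kept the call under every one. The cause of the changes below was not tested. With DESeq2 the number of regulators called was 4 for rIL-4 against PBS in microglia, 1 for rIL-4 against rIL-13 in microglia, 8 for rIL-13 against PBS in macrophages (Cebpb among them, lower) and 3 for rIL-4 against rIL-13 in macrophages. In 1 model of all 18 libraries these numbers were 4, 1, 1 and 0, and rIL-4 against PBS in macrophages gave 4 in place of 7. With no filter on low counts, rIL-13 against PBS in macrophages gave 7 (Cebpb again among them, lower), and with only the 6 libraries compared, rIL-4 against rIL-13 in macrophages gave 0. In a limma-voom fit of all 18 libraries with the mouse as a replicate block the numbers were 4 (rIL-4 against PBS) and 1 (rIL-4 against rIL-13) in microglia. In macrophages they were 5 for rIL-4 against PBS in place of 7, 0 for rIL-13 against PBS and 0 for rIL-4 against rIL-13. Over all genes that fit, which differs in tool, libraries and block together so that the part of each was not separated, called 2015 in place of 345 for rIL-4 against PBS in microglia, 466 in place of 57 for rIL-13 against PBS in microglia, 468 in place of 6 between the cytokines in microglia, 752 in place of 1900 for rIL-4 in macrophages, 186 in place of 570 for rIL-13 in macrophages and 3 in place of 34 between the cytokines in macrophages. DESeq2 called 1215, 322, 557, 2660, 1163 and 420 in the same order. It called 689 and 154 genes for the differences between responses to rIL-4 and rIL-13, and no filter called 209 between the cytokines in macrophages. In 1 model of all 18 libraries the counts were 949, 172, 138, 1053, 257 and 70.

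Leaving out 1 mouse, the number of regulators called ranged from 0 to 1 for rIL-4 against PBS in microglia, from 1 to 6 for rIL-13 against PBS in macrophages, from 0 to 1 between the cytokines in macrophages and from 2 to 3 between cell types with rIL-13. Over all genes, leaving out 1 mouse gave between 75 and 409 calls for rIL-4 and between 22 and 56 for rIL-13 against PBS in microglia, between 0 and 15 between the cytokines in microglia, between 1041 and 2261 for rIL-4 and between 199 and 677 for rIL-13 against PBS in macrophages, and between 1 and 60 between the cytokines in macrophages. It gave between 4354 and 5213, 1197 and 3606, and 1798 and 2548 between cell types with PBS, rIL-13 and rIL-4, and between 18 and 243 for the difference between rIL-4 responses and 0 and 6 for rIL-13. The lowest counts against PBS came without PBS mouse 3. Directions that turned belonged to log2 fold changes that were not called. In rIL-4 microglia against PBS the range was -2.70 to 4.10 for Irf4, -2.67 to 0.58 for Cebpb (-0.78 with the replicate block), -0.00 to 1.17 for Kdm6b and -0.04 to 0.24 for Myc. In rIL-13 microglia it was -1.10 to 0.68 for Pparg and -0.24 to 0.35 for Egr2, and in rIL-13 macrophages -0.56 to 0.57 for Kdm6b. Between cell types Batf3 ranged from -0.02 to 0.43 with rIL-13 and from -0.21 to 0.74 with rIL-4. For the difference between responses to rIL-4, Klf4 was at 0.04 with DESeq2 and with its size factors, at 0.09 with no filter and between -0.27 and 0.24 with 1 mouse left out, and Bhlhe40 between -0.17 and 0.28.

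Irf4 in microglia rests on between 0 and 209 counts in a library, and groups of 3 mice leave wide intervals for Irf4 and Cebpb there.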
